A study of Drosophila melanogaster with 2 samples.

Results

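Of the 2750 peaks that the authors' thresholded list gives for E(spl)mδ-HLH in fly embryos, 656 (23.9%, exact binomial 95% interval 22.3 to 25.5) had their summit in an intron and away from promoters. A summit is the base that the deposited list marks as a peak's highest point. The 656 were chosen by position alone: more than 500 bp from every annotated transcription start site (TSS) of a protein-coding gene, inside the body of a protein-coding gene, in no exon of any gene, and neither inside nor within 500 bp of a gene for a non-coding RNA. The steps left 1226 summits away from a TSS, of which 795 lay in a protein-coding gene and 694 of those in no exon, and 38 were then dropped beside non-coding genes. A further 1524 summits lay within 500 bp of a TSS (called promoter summits here) and 319 lay between genes. The members closest to the TSS limit were at 502 bp (CG13252, signal 163) and 503 bp (eIF1A, signal 155), and the summits just outside it were at 498 bp (ctrip, signal 233) and 496 bp (Ack-like, signal 216).

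The study mapped the protein by chromatin immunoprecipitation and sequencing (ChIP-seq) in whole Drosophila melanogaster embryos, 2 to 12 h old and of both sexes. They carried a transgene for E(spl)m-delta with green fluorescent protein at its C-terminal end, and the labels name the target as HLHmδ. The age is that of the source label, since a separate age label gives an implausible number of hours. There was 1 group with 2 biological replicates, so no condition was compared, and peaks of 1 list are not replicates. A description label of both samples calls them input controls, while the assay, strain and target labels describe the immunoprecipitated material, and the lists are peaks over a control alignment. Whole embryos over this span of ages mix all tissues, and these lists do not tell in which cells a peak arose.

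E(spl)mδ-HLH belongs to the Enhancer of split repressors, basic helix-loop-helix proteins made in response to the Notch pathway. Proteins of this family bind E-box-like sites and recruit the corepressor Groucho. Introns of fly developmental genes, above all long first introns, are known to hold enhancers, the stretches of DNA where transcription factors gather to set when and where a gene is used.

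The DNA under the strongest intronic summits is shown first, since the same few words recur in it. These windows reach 50 bp to either side of the summit, 5′ to 3′ on the plus strand of dm6, and are those of the 9 strongest members other than the sbb member. Capitals mark, on either strand, the forkhead-type words GCAAACA and GTAAACA, the GA repeat GAGAGAG, the CA repeat CACACAC and the E-box types CATATG, class B (CACGTG) and class C (CACGCG). Where matches overlap, the capitals run on.
CG6333, chr3L:17485577-17485677: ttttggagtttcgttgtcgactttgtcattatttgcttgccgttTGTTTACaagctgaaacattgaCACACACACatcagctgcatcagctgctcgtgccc
Stt3A, chrX:21053213-21053313: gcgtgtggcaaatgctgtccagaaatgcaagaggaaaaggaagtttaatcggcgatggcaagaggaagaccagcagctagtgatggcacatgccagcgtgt
S, chr2L:1072358-1072458: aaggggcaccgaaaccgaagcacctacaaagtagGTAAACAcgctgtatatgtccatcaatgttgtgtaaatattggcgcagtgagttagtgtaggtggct
cno, chr3R:5215491-5215591: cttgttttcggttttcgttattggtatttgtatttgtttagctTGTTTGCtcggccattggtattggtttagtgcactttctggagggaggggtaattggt
Tre1, chrX:5677989-5678089: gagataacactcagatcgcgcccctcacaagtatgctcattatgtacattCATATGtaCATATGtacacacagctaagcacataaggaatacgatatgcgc
ush, chr2L:485831-485931: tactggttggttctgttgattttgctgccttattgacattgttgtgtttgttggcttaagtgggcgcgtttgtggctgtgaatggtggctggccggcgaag
spi, chr2L:19576073-19576173: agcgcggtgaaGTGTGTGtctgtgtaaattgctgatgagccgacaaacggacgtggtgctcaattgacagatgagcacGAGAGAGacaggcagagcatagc
Dys, chr3R:19584850-19584950: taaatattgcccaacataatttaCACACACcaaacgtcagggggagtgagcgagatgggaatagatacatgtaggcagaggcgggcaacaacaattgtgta
The CG6333, S and cno windows each hold 1 forkhead-type word close to the summit, the Tre1 window holds paired CATATG E-boxes, the spi window holds both repeats, and the Stt3A and ush windows hold none of the marked words.

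The strongest intronic peaks lay in CG6333, sbb, Stt3A, S and cno, and each ranked high in both replicates. The thresholded list was drawn from the pooled reads of both replicates, so these ranks are no independent support for it. Values are the deposited signal of the peak in the thresholded list, where ranks run over all 2750 peaks, and in each replicate's own list of 30000 peaks. The signal is the authors' enrichment statistic and its scale differs between lists, so replicates are compared here by rank. The strongest intronic peak lay in the first intron of CG6333, 603 bp from its TSS, with signal 886 (rank 12), 582 in replicate 1 (rank 10) and 311 in replicate 2 (rank 16). Next came a peak in sbb (scribbler, a nuclear cofactor of transcription), 20091 bp from the nearest TSS, with signal 843 (rank 13), 524 in replicate 1 (rank 15) and 328 in replicate 2 (rank 11). The peak in Stt3A, which encodes the catalytic subunit of the oligosaccharyltransferase of protein glycosylation, had signal 781 (rank 17), 504 in replicate 1 (rank 16) and 282 in replicate 2 (rank 24). These 3 peaks were among the strongest 24 of both replicates.

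The next peaks by signal lay in S, cno, Tre1, ush and spi, in that order. The first intron of S (Star, which carries the ligand Spitz through the secretory pathway) held a peak of signal 722 (rank 23), with 456 in replicate 1 (rank 20) and 274 in replicate 2 (rank 25). The first intron of cno (canoe, the fly afadin, which links junctions to actin) held one of signal 698, with 448 in replicate 1 (rank 21) and 260 in replicate 2 (rank 26). The peak in spi, the gene of Spitz itself, had signal 569, with 334 in replicate 1 (rank 57) and 237 in replicate 2 (rank 39). Both the S and the spi peak lay in a first intron, but at unlike distances from the nearest TSS. That in S was at 5403 bp, and that in spi was at 536 bp, close to the limit of 500 bp. Tre1, a G-protein-coupled receptor needed for germ cell migration, had signal 621, with 379 in replicate 1 (rank 39) and 250 in replicate 2 (rank 31). The peak in ush (u-shaped, a FOG-type partner of GATA factors) had signal 596, with 395 in replicate 1 (rank 36) and 202 in replicate 2 (rank 63).

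The rest of the 20 strongest ran from signal 544 to 415. In order they lay in Dys (dystrophin), Kdm2 (a histone demethylase), Lrch, fra (frazzled, the netrin receptor), Atg17 (an autophagy scaffold), Eip75B (an ecdysone-induced nuclear receptor), Oatp30B (an organic anion transporter), apt (apontic, a transcription factor), InR (the insulin receptor), CG6191 (overlapped there by CG45088), CG9837 and Rbfox1 (an RNA-binding protein). All 20 were within the first 800 peaks of both replicates, whose reads the ranking used to choose them shares. The widest gap among them was Rbfox1, rank 65 in replicate 1 (signal 327) and rank 771 in replicate 2 (signal 89.5). In 10 of the 20 the intron was first in every transcript that had it, in 4 it was a later intron, and in 6 it was first in some transcripts only. The TSS nearest to the summit belonged to the host gene in 17 of the 20, the exceptions being the members in Dys, fra and Oatp30B, and 7 summits were over 5 kb from any TSS.

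As a class the intronic peaks were of ordinary strength for this list. Their signal ran from 117 to 886 with a median of 158 (quartiles 133 and 211), against 162 over all thresholded peaks, 163 for promoter summits and 165 for intergenic summits. Their median rank was 1455, and 16 of the 656 (2.44%) were among the first 100 peaks, against 3.67% of promoter summits and 5.02% of intergenic summits.

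Sharing between replicates did not differ detectably between intronic peaks and the other classes. Of the 656, 400 (61.0%, 57.1 to 64.7) overlapped by at least 1 bp a peak among the strongest 2750 of both replicates. The same held for 61.7% of all thresholded peaks, which is the background for this count. The share was 63.4% at promoter summits, a difference of -2.41 percentage points (Newcombe 95% interval -6.88 to 1.99, adjusted p = 0.577, two-sided Fisher's exact test, Benjamini-Hochberg over 2 tests). It was 59.2% at intergenic summits, a difference of 1.73 points (-4.75 to 8.31, adjusted p = 0.625, Fisher's exact test). Another 145 intronic summits were among the strongest of replicate 1 only, 100 of replicate 2 only and 11 of neither. In the full lists of 30000 peaks, 652 had an overlapping peak in both replicates.

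A few intronic peaks ranked far higher in 1 replicate. The Akt peak (Akt, a kinase of insulin signalling) ranked 1055 in replicate 1 and 47 in replicate 2. The peak in mib2, a ubiquitin ligase related to mind bomb, ranked 4382 in replicate 1 and 244 in replicate 2. In the other direction, 2 of the 5 peaks in atos ranked 1322 and 1367 in replicate 1 but 28073 and 28290 in replicate 2. The peak in Pka-R2, a regulatory subunit of protein kinase A, ranked 1159 and 20429, in the same order of replicates. The weakest peak in the Hox gene lab (labial) had rank 1152 in replicate 1 and rank 17301 in replicate 2. That in l(2)k01209 had ranks 375 and 6456. These are the 7 members with the largest ratios of ranks, chosen after their values were seen.

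Intronic summits were denser near start sites and in first introns. The rule left 47.0 Mb of intron in which a member could lie, and over all of it there were 13.9 summits per Mb (exact Poisson 95% interval 12.9 to 15.1, counting error only). First introns held 295 summits (45.0%) in 25.9% of that sequence, 24.2 per Mb (21.5 to 27.1). Later introns held 193 (29.4%) in 56.7% of it, 7.23 per Mb (6.25 to 8.33). Introns that are first in some transcripts and later in others held 168, 20.6 per Mb (17.6 to 23.9).

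Density fell with distance from the nearest TSS. It was 32.7 per Mb (27.1 to 39.1) between 0.5 and 1 kb, 24.2 between 1 and 2 kb, 16.9 between 2 and 5 kb, 12.6 between 5 and 10 kb, 7.95 between 10 and 20 kb, and 2.91 (1.92 to 4.24) beyond 20 kb. First introns lie nearer to start sites than later ones, so both were looked at together. From 0.5 to 2 kb, first introns had 35.5 summits per Mb (30.0 to 41.7) and later introns 15.0 (11.1 to 19.9). From 2 to 10 kb the values were 19.9 (16.5 to 23.8) and 10.1 (8.31 to 12.3), and beyond 10 kb they were 13.4 (8.86 to 19.6) and 2.99 (2.13 to 4.09). The intervals of first and later introns did not overlap in any of these ranges. The median member was 2818 bp from a TSS and the farthest 85582 bp.

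**Figure D1:**
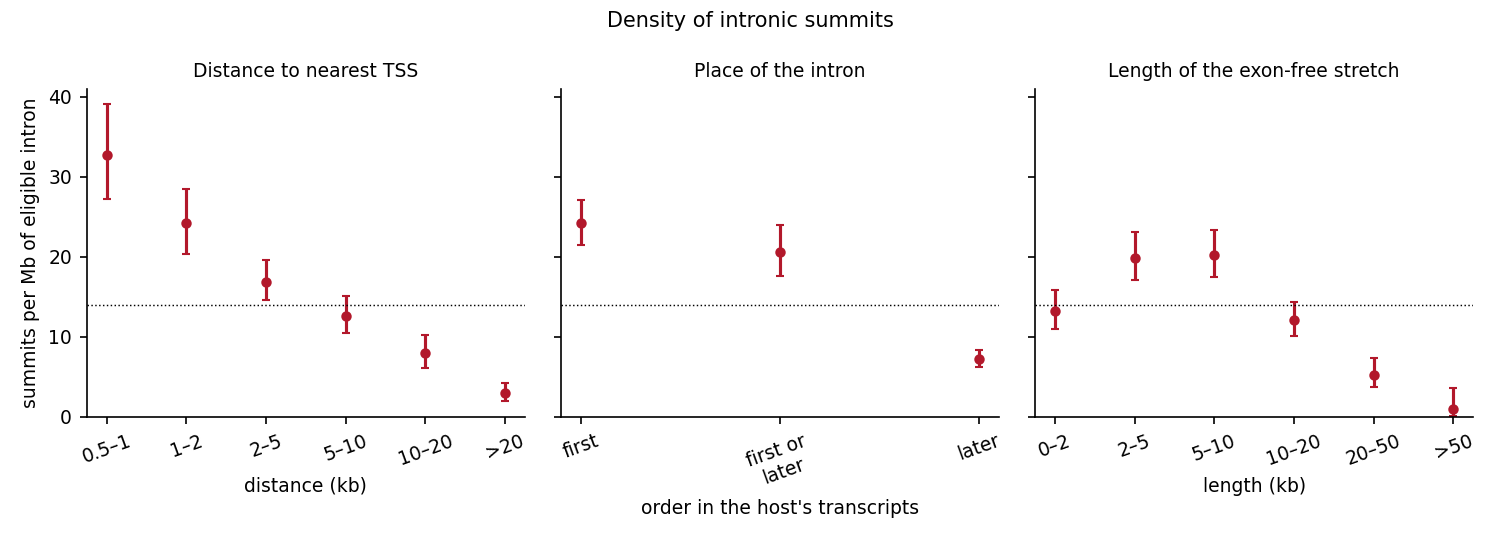
Intronic summits per Mb of intron in which a member could lie (y axis), by distance to the nearest TSS, by the place of the intron in the host's transcripts and by the length of the exon-free stretch around the summit (x axes). Points are counts over sequence, bars are exact Poisson 95% intervals and the dotted line is the value over all such intron, 13.9. Density falls from 32.7 to 2.91 with distance and from 24.2 to 7.23 between first and later introns.

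Long exon-free stretches held few summits for their length. Exon-free stretches of 5 to 10 kb had 20.2 summits per Mb (17.5 to 23.3) and those of 2 to 5 kb had 19.9, while stretches of 20 to 50 kb had 5.27 (3.69 to 7.30). Stretches over 50 kb had 2 summits in 2.05 Mb, 0.978 per Mb (0.118 to 3.53). The shortest, up to 2 kb, had 13.2 and those of 10 to 20 kb had 12.1, so density did not fall steadily with length. Length was not looked at together with distance to the TSS. By chromosome arm, density was 17.1 per Mb on 2R, 16.0 on 2L, 15.8 on 3L and 12.4 on 3R. It was lowest among these on X, 9.89 (7.89 to 12.2), with 84 summits. Chromosome 4 had 0 summits in 0.393 Mb, where the exact interval reaches 9.40 per Mb.

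The 656 summits lay in 464 host genes, and a minority of genes held many. The hosts were 5.15% of the 9014 protein-coding genes that have any intron in which a member could lie, and 5.15% is the background for the gene lists given later. Of the hosts, 332 held 1 member, 132 held 2 or more and 12 held 5 or more. Among the 656 members, 28 lay in more than 1 gene, 26 of them in 2 genes and 2 in 3. Each of these was counted for every gene that held it. Hosts had long introns, with a median of 11.6 kb in which a member could lie against 454 bp for all such genes. The TSS nearest to the summit was a host's own in 533 members (81.2%) and another gene's in the rest.

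The nuclear receptor gene Eip75B and the transcription factor gene jing held the most summits. Eip75B, induced by the steroid ecdysone, held 11 over 66.9 kb, and EcR, the ecdysone receptor itself, held 5 over 32.4 kb. The zinc-finger gene jing held 10 over 98.8 kb, all in intron that is first in every transcript that has it. Its strongest lay in an intron of 1 of its 4 annotated transcripts. The genes with 6 were plh, tara (taranis, a trithorax-group cofactor) and Tlk (the Tousled-like kinase of chromatin assembly). Tet (the fly homologue of the methylcytosine dioxygenases), shn (schnurri, a zinc-finger repressor in Dpp signalling), atos and simj (a subunit of the Mi-2/NuRD complex) had 5 each, as did cic and hth.

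Summits within a host differed widely in strength. The 11 in Eip75B ranged from signal 120 to 496, and 6 of them were among the strongest 2750 of both replicates. Its strongest, in a later intron 2793 bp from a TSS, ranked 112 in replicate 1 and 48 in replicate 2. The 10 in jing ranged from 118 to 315, with 6 among the strongest 2750 of both replicates. The 6 in tara ranged from 119 to 287 and all 6 were among the strongest 2750 of both replicates. The 5 in EcR ranged from 157 to 412, and its strongest pair ranked 145 and 189 in replicate 1 and 103 and 116 in replicate 2. In plh all 6 lay in first introns and within 6.69 kb of each other, and in simj the 5 fell within 8.89 kb. Of the 5 in atos, 1 was among the strongest of both replicates.

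**Figure D2:**
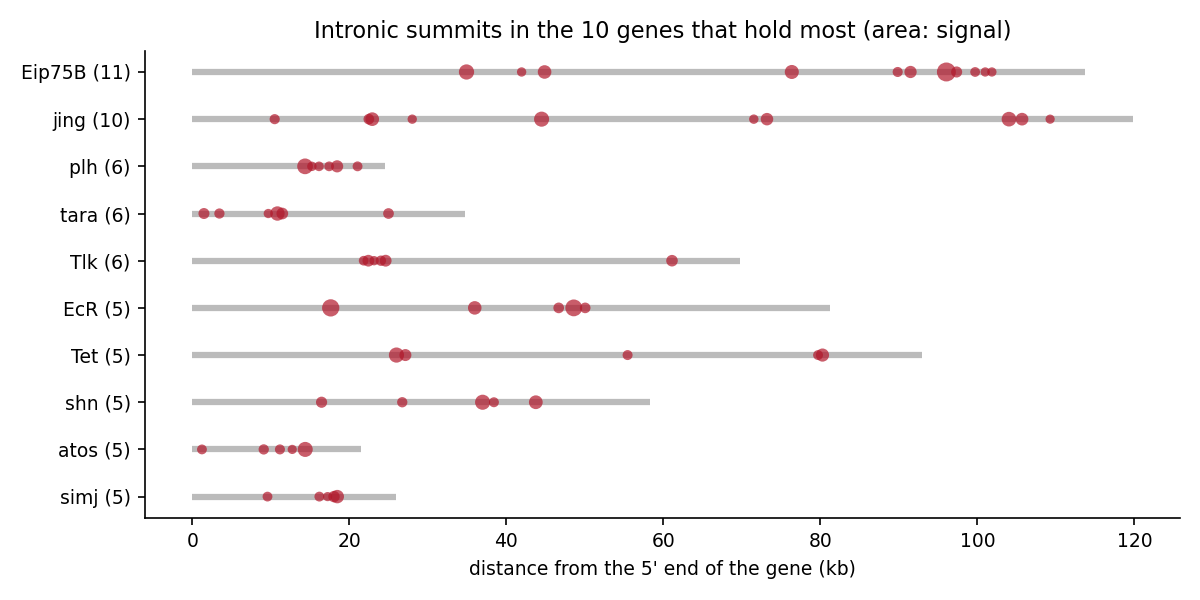
Intronic summits along the 10 genes that hold most, as distance from the 5′ end of the gene in kb (x axis). Grey bars span the gene, red points are summits, the area of a point is proportional to its deposited signal, and numbers in brackets are summits per gene. Summits spread over much of jing and Tet but crowd together in plh and simj.

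The 4 strongest Eip75B windows are shown because this gene held most members, and they differ from each other in the words they hold. Layout and capitals are as above.
Eip75B, signal 496, chr3L:17968596-17968696: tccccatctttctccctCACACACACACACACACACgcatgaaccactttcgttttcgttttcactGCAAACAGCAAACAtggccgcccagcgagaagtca
Eip75B, signal 321, chr3L:18029718-18029818: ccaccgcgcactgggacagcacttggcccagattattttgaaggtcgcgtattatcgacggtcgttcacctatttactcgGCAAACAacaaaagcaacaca
Eip75B, signal 273, chr3L:17988285-17988385: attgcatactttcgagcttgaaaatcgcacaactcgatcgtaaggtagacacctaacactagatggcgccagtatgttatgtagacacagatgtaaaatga
Eip75B, signal 255, chr3L:18019774-18019874: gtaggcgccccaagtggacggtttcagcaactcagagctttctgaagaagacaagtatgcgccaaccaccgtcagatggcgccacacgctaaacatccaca
The strongest holds a CA repeat and tandem GCAAACA words, the next holds 1 GCAAACA, and the other two hold none of the marked words.

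Genes with an intronic summit often had a promoter summit as well. A thresholded summit lay within 500 bp of a TSS of the gene in 264 of the 464 hosts (56.9%, 52.3 to 61.5) and in 12.97% (12.3 to 13.7) of the other genes with such intron. The gap was also present among genes of like length. Among genes with 5 to 10 kb of such intron it was 51.2% of 86 hosts against 25.5% of the others, and among genes with 20 to 50 kb it was 71.6% of 102 hosts against 25.1%. Of the 10 genes with most members, all but plh and atos had a promoter summit.

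Many nuclear receptor genes and chromatin genes held an intronic summit. Of 15 genes of nuclear receptors and the ecdysone response with such intron, 9 were hosts (60.0%, against the background of 5.15%), where genes of like length would give 3.61. They held 27 summits and were Eip75B, EcR, Hr3, tai, Eip74EF, ftz-f1, Eip78C, Hnf4 and Hr4. Hr3, an orphan receptor in the ecdysone cascade, had its strongest peak at signal 329, rank 223 in replicate 1 and 275 in replicate 2. Of 25 chromatin and corepressor genes 14 were hosts (56.0%), where like length would give 2.83. They were sbb, tara, Psc, bon, osa, psq, Trl, Mi-2, mod(mdg4), trx, ph-p, CtBP, kis and Sin3A, with 30 summits in all. Besides sbb and tara, the highest was Psc, a Polycomb group protein, at signal 269, rank 304 in replicate 1 and 706 in replicate 2. These are counts with no test, from lists chosen with earlier results of these data known.

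Genes of signalling pathways came next. In the receptor tyrosine kinase pathway 11 of 30 genes were hosts (36.7%, like-length 4.58), with 22 summits, and S, spi and InR had the highest signal. The others were sty, vn, Raf, pnt, stumps, Egfr, Pvf3 and aop, so ligands, receptors, a kinase and nuclear effectors of the pathway were all included. In the Wnt and Hedgehog pathways 8 of 21 were hosts (38.1%, like-length 3.37), led by ptc, the Hedgehog receptor, at signal 324 with rank 154 in replicate 1 and 640 in replicate 2. In the Dpp pathway 5 of 13 were hosts (38.5%, like-length 1.49). Its strongest was in tkv, a Dpp receptor, at signal 330, rank 205 in replicate 1 and 321 in replicate 2.

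In the Notch pathway, which controls the E(spl) genes, 5 of 20 genes were hosts (25.0%, like-length 2.23). The coactivator mam (mastermind) held 4 summits, the strongest at signal 292, rank 1002 in replicate 1 and 95 in replicate 2. The ubiquitin ligase neur (neuralized), which activates Notch ligands, held 2, the strongest at signal 258, rank 499 in replicate 1 and 465 in replicate 2. The receptor gene N held 1 of signal 148, 2059 bp from its TSS, which ranked 1098 in replicate 1 and 3671 in replicate 2. The glycosyltransferase gene fng and Nedd4 were the other two.

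Neural lists were at 4.35% to 22.2%. Of 18 neuroblast genes 2 were hosts (11.1%, like-length 2.66), namely klu at signal 143 and brat at 123, and of 9 proneural and sense organ genes 2 were (22.2%, like-length 1.22), cpo and ttk. Of 29 axon guidance and adhesion genes 6 were hosts (20.7%, like-length 5.89), among them fra and the netrin genes NetB (signal 298) and NetA (signal 233). Of 23 ion channel and synapse genes, whose introns are long, 1 was a host, Shal (signal 181), where like length would give 4.62. Homeodomain factors had 6 of 39 (15.4%, like-length 6.04), led by lab at signal 401, zfh1 at 262 and abd-A at 205. RNA-binding proteins had 6 of 22 (27.3%, like-length 5.09).

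Structural and muscle genes held intronic summits too. Of 19 cytoskeleton and junction genes 7 were hosts (36.8%, like-length 2.68), among them cno, chic (profilin, signal 267) and crb (crumbs, signal 189). Of 27 muscle genes 7 were hosts (25.9%, like-length 3.96), led by mbc (signal 402) and rols (signal 273), which act in myoblast fusion, and kirre (signal 256), a receptor of that process. Of 16 growth and cell cycle genes 1 was, E2f1, with 2 summits (like-length 1.69).

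The DNA at intronic summits was richer in G and C than the DNA beside it. Windows of 101 bp at the summit had 49.6% GC (SD 7.08, n = 656), while windows centred 500 bp to the left and right had 40.5% and 40.1%. Promoter summits had 52.0% and intergenic summits 50.4%. Bases that the reference marks as repeats made up 14.6% of the intronic windows, 18.4% and 18.0% of the flanks, and 9.07% of promoter windows. Base composition differs between these windows and classes, and its part in the motif shares given next was not tested.

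Motifs of housekeeping promoters were rare or absent at intronic summits, and the E-box CATATG was more frequent there than at promoters. Of 15 motifs compared on both strands, 5 differed from promoter summits at an adjusted p under 0.05 and 0 differed from intergenic summits (two-sided Fisher's exact tests, Benjamini-Hochberg over 30 tests, 16.7% of which passed). Without adjustment 7 and 2 passed. The tests treat neighbouring peaks as independent. The element TATCGATA, bound by the DRE factor, was in 0 of 656 intronic windows, which allows a share of up to 0.457% by a limit of 3 counts and 0.561% by the exact interval, and in 3.54% of promoter windows (adjusted p = 3.8e-08, Fisher's exact test). Core promoter motif 1, GGTCACAC, was in 2 intronic windows (0.305%) and in 6.50% of promoter windows (adjusted p = 4.4e-12, Fisher's exact test). In the intronic flanks TATCGATA was in 0% and 0% of windows and GGTCACAC in 0.305% and 0%. To the left of promoter summits the shares were 0.656% and 0.459%. The classes were defined by distance to a TSS, so a contrast in promoter motifs could be expected from that definition alone.

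The E-box CATATG was in 47 intronic windows (7.16%), in 1.84% of promoter windows (difference 5.33 points, 3.42 to 7.63, adjusted p = 3.8e-08, Fisher's exact test) and in 5.02% of intergenic windows. Its flank shares were 4.57% and 2.74%. To the left of promoter summits it was in 3.67% of windows, more than at the promoter summits themselves. Without replicate 1 the difference from promoters was 3.24 points (adjusted p = 0.0038, Fisher's exact test). The CA repeat CACACAC was in 17.1%, against 12.0% at promoters (adjusted p = 0.0156, Fisher's exact test) and 5.18% and 6.55% in the flanks. Its difference from promoters was 5.07 points, 8.49 points without replicate 1, and 2.33 points with a TSS margin of 1000 bp, where it did not pass (adjusted p = 0.564, Fisher's exact test). The homeodomain core TAATTA was in 2.90%, against 1.18% at promoters (adjusted p = 0.0382, Fisher's exact test), but in 7.01% and 5.79% of the flanks, so it was scarcer at the summit than beside it. The call for TAATTA was lost in 6 of 8 alternatives, with adjusted p = 0.125 without replicate 1 and 0.118 without replicate 2 (Fisher's exact tests).

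Sites known for E(spl)-type repressors were more frequent at intronic summits than in the flanks. The class C E-box CACGCG was in 8.23% of summit windows (6.24 to 10.6) and in 1.68% and 1.83% of the flanks. The class B E-box CACGTG was in 4.73% (3.23 to 6.64) and in 1.68% and 1.07% of the flanks. Its reordered form GTGCAC, used as a control, was in 2.74% and in 2.59% and 2.13% of the flanks. The N-box CACNAG, where N is any base, was in 17.7% against 11.0% and 11.3%. The GA repeat GAGAGAG, bound by GAGA factor, was in 10.7% (8.41 to 13.3) against 2.44% and 2.74%. At promoter summits the shares were 8.60%, 2.82%, 16.7% and 9.06% in the same order, and none of these 4 differed from intronic summits after adjustment. At intergenic summits they were 10.7%, 3.13%, 18.5% and 5.96%. The control GTGCAC was in 4.27% of promoter windows, more than CACGTG there, and in 2.82% of intergenic windows. An excess over the flanks was not particular to sites of E(spl)-type repressors. The proneural E-box GCAGCTG was in 5.03% of intronic windows against 2.13% and 2.29% of the flanks. The CA repeat was also more frequent at the summit, while TAATTA went the other way, as given above. Against intergenic summits GAGAGAG differed by 4.71 points (0.901 to 8.06) at an unadjusted p of 0.0175 by Fisher's exact test, which did not pass adjustment.

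**Figure D3:**
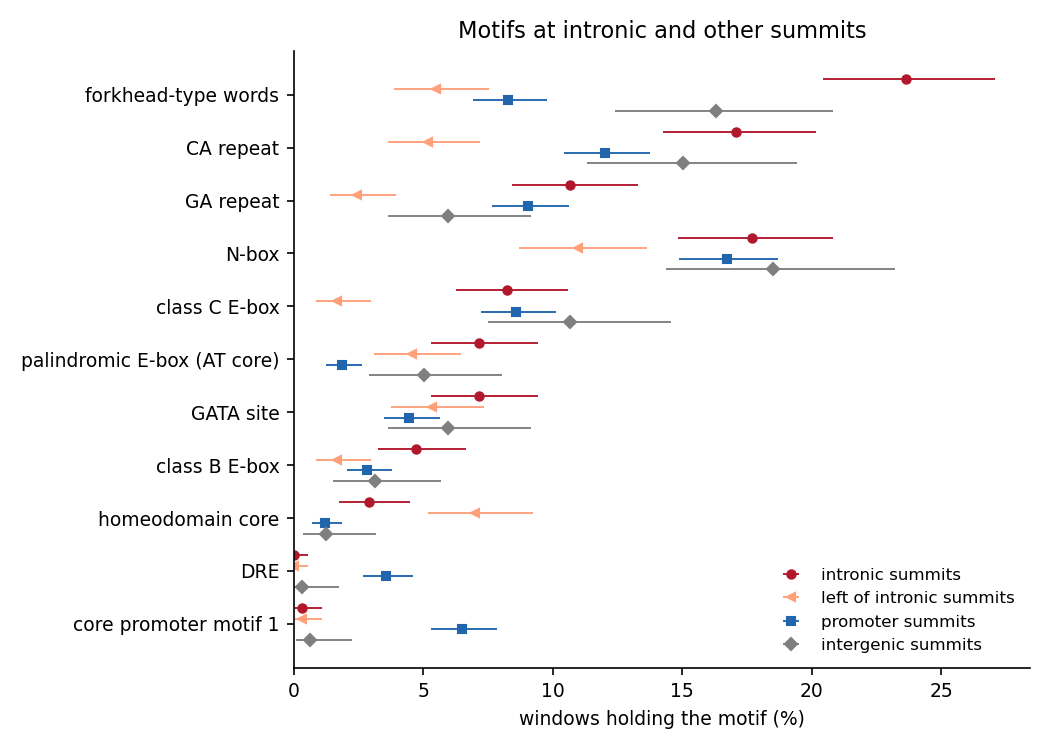
Share of 101-bp windows that hold a motif on either strand (x axis, %) at intronic summits, 500 bp to their left, at promoter summits and at intergenic summits. Points are shares and bars exact binomial 95% intervals. Forkhead-type words pool GCAAACA and GTAAACA, which were picked from these same windows, and have the highest plotted share at intronic summits, 23.6%. Singly these words are in 16.3% and 9.60%, against 17.7% for the N-box and 17.1% for the CA repeat. The DRE and core promoter motif 1 appear almost only at promoter summits. The AT-core E-box is CATATG.

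A word of the forkhead type had the largest excess over the flanks. Forkhead-family transcription factors bind words of the form GTAAACA or GCAAACA. In a count of all words of 7 bases, GCAAACA stood first in the excess of summit windows over flanks. It was in 107 windows (16.3%), against 3.05% and 3.20% of the flanks, 4.20% of promoter summits and 11.6% of intergenic summits. GTAAACA stood in place 9, with 9.60% of windows. The places between included CA and GA repeats and, in places 7 and 8, ACAAACA (11.7%) and CAAACAA (12.0%). Neither was counted as forkhead-type here, and they were in 11.9% and 11.3% of intergenic windows. Since these words were picked from the same windows, their shares are a description and no test was made.

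At least 1 of both words was in 155 of the 656 intronic windows (23.6%, 20.4 to 27.1). The share was 5.49% to the left and 5.03% to the right of the summits, 8.27% (6.93 to 9.76) at promoter summits and 16.3% (12.4 to 20.8) at intergenic summits. In replicate 2's strongest peaks alone, that is without replicate 1, the intergenic share was 10.1% (6.99 to 13.9), and the intronic share there was 20.6%. The words centred on the summit. Per 100 intronic summits there were 7.77 in the 20 bases before the summit and 9.30 in the 20 bases from it on, and 0.915 and 1.37 in the outermost bins about 250 bp away. Promoter summits had 2.10 and 1.97 at the same central places, and intergenic summits had 7.21 and 5.02. The words had been picked for their excess at intronic summits, so some centring there was set by that choice. Only 8 windows held both a forkhead-type word and the GA repeat, 147 held the first without the second and 62 the second without the first.

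Stronger intronic peaks held forkhead-type words more often. With the members split into 4 equal groups of 164 by signal, the share was 37.2% (29.8 to 45.1) in the strongest group, 25.6% and 18.9% in the middle groups and 12.8% (8.10 to 18.9) in the weakest. The share to the left of the summits in these groups stayed between 4.88% and 6.71%, and mean GC ran from 49.0% in the strongest group to 50.5% in the weakest. At promoter summits split the same way the shares were 7.87%, 7.87%, 8.92% and 8.40%. At intergenic summits they were 18.8%, 8.75%, 22.5% and 15.2%. Among intronic peaks the GA repeat did not follow this order, with 8.54%, 11.6%, 13.4% and 9.15%, nor did the CA repeat, with 12.8%, 18.9%, 17.1% and 19.5%. The E-box types did not fall steadily from the strongest group either. Class C had 10.4%, 6.71%, 5.49% and 10.4%, class B had 5.49%, 4.88%, 5.49% and 3.05%, and CATATG had 7.93%, 6.71%, 8.54% and 5.49%. Of the 20 strongest members 10 held a forkhead-type word, namely those in CG6333, sbb, S, cno, Lrch, Atg17, Eip75B, Oatp30B, CG9837 and Rbfox1.

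**Figure D4:**
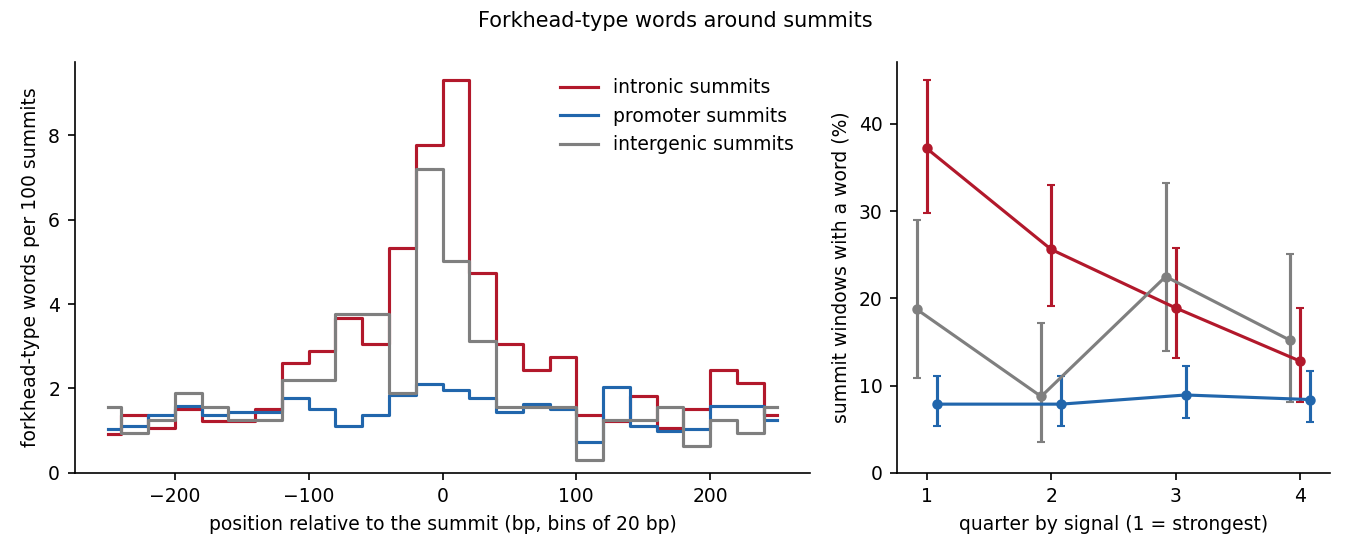
Left, forkhead-type words per 100 summits (y axis) by position from the summit in bins of 20 bp (x axis). Right, share of summit windows with at least 1 word (y axis, %) in 4 groups by signal, 1 the strongest (x axis), with exact binomial 95% intervals. Intronic summits reach 9.30 words per 100 just after the summit and fall from 37.2% to 12.8% with signal, while promoter summits stay between 7.87% and 8.92%. Intergenic summits reach 7.21 words per 100 just before the summit.

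By place in the intron, the share of windows with a forkhead-type word ran from 19.0% to 26.8%, with no test of the differences. It was 22.7% in first introns, 22.3% in later introns and 26.8% in those first in some transcripts only, 19.0% (12.4 to 27.1) within 1000 bp of a TSS and 26.3% (20.5 to 32.8) beyond 5 kb. It was 28.5% (24.1 to 33.2) in the 400 members among the strongest of both replicates and 16.0% (11.7 to 21.1) in the other 256. In replicate 1's strongest 2750 peaks alone the intronic share was 23.8%.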

How the data were processed

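Peak lists from 2 biological replicates (1 group) were used. The authors deposited a list per replicate, a list of pooled reads and a thresholded list, per the file headers on dm6 and against a shared control alignment; the thresholded peaks are the first 2750 of the 30000 pooled ones. The deposited signal values were used for ranks and compared only within a list, each summit from the deposited offset. Which aligner and peak caller were used is not given in the sources used here, and read depth is unknown. Both replicates shared the control, so they are not fully independent.

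Summits were placed on Ensembl release 115 genes (BDGP6, the coordinates of dm6) and sequences were read from the NCBI Release 6 reference of the same build, with Python 3.11.15, numpy 2.4.6, scipy 1.17.1 and matplotlib 3.10.9. No gene of biotype pre_miRNA is in that annotation. Shares have exact binomial and densities exact Poisson 95% intervals, which cover counting error only. Shares of 2 classes were compared with two-sided Fisher's exact tests at an adjusted p of 0.05, checked on simulated windows. "Like-length" counts apply to each gene of a list the host share of all genes in its band of intron length.

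The genes named are the hosts of the 20 strongest members, the 10 hosts with most members (ties by signal), and up to 3 hosts per list by signal; complete host lists, cic, hth and the peaks of unequal rank were added after their values were seen. All 365 listed genes were matched. The members, the 15 lists and the motifs were chosen with earlier results of these data known. Alternatives changed the list, the TSS and non-coding margins, the summit, the window and the matching of replicates.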

Additional observations from a re-analysis of the deposited data

How the results depend on the processing

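Under a TSS margin of 1000 bp the intronic share was 19.5%, and 3 motifs differed from promoter summits. The stronger part of the list by signal had 313 intronic, 781 promoter and 164 intergenic summits. Of these intronic summits 93.9% overlapped the strongest peaks of both replicates, and the difference from promoter summits turned to 1.23 points (adjusted p = 0.513, Fisher's exact test). There, 3 motifs differed from promoter summits and 31.6% of intronic windows held a forkhead-type word. With windows reaching 100 bp to either side that share was 33.4%; settings for these words were added after seeing the data. Against intergenic summits 1 motif in place of 0 passed without replicate 1, without replicate 2 and at the 1000 bp margin (GAGAGAG), and without the non-coding margin and at peak middles (the Su(H) site, lower in introns). CACACAC against promoters lost its call in the stronger peaks (4.13 points, adjusted p = 0.353, Fisher's exact test) and at the 1000 bp margin (2.33 points, 0.564), and TAATTA lost its call in 6 settings (adjusted p up to 0.897). CATATG, TATCGATA and GGTCACAC kept their calls in every setting run, at 3.24 to 7.05 points for CATATG. The causes were not tested. No paired analysis was possible because the series has 1 group. With 2 replicates, peak lists without read counts and mixed tissues, differences in depth and in cell type cannot be told apart from binding.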
